A study of Homo sapiens with 6 samples.

Results

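The insulin and insulin-like growth factor (IGF) system was examined as 10 genes out of the 58884 in the deposited table, which act at or near the cell surface. The genes were selected by symbol: the receptors INSR, IGF1R and IGF2R, the adaptors IRS1 and IRS2, the ligand IGF2, and the binding proteins IGFBP2, IGFBP3, IGFBP4 and IGFBP6. RNA-seq had been performed on DLD1 cells, a human colorectal cancer line that carries a helical-domain mutation of PIK3CA, as 3 libraries of parental cells and 3 libraries of p85β KR-AA cells. In the p85β KR-AA cells, K477A and R478A had been knocked into PIK3R2, the gene for the p85β regulatory subunit of PI3K, by CRISPR/Cas9 editing, and both groups therefore share the PIK3CA mutation and differ by genotype alone in the labels. The study describes the knock-in cells as homozygous and as isolated clones, the labels do not say from which clone or culture a library came, and the p-values below measure only the spread between these libraries. In 2 of the 3 p85β KR-AA libraries the source label gives another residue number for the second substitution, whereas the genotype label is the same in all 3.

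Insulin and the IGFs bind the receptor tyrosine kinases encoded by INSR and IGF1R, which phosphorylate the IRS adaptors, and phosphorylated IRS proteins recruit p85 subunits and with them the catalytic subunit of PI3K. IGF2R has no kinase and carries IGF2 to lysosomes, together with mannose-6-phosphate tagged enzymes. The IGF-binding proteins are secreted, hold the IGFs outside the cell and are cut by dedicated proteases, and intestinal epithelium expresses both kinase receptors. The comparison asked how the RNA of this system differed between cells whose p85β could and could not enter the nucleus.

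All 10 genes passed the filter on low counts. Values are given for each of the 6 libraries as CPM, the counts relative to the library size after TMM scaling. TMM assumes that most genes do not change. Here 6074 of the 16059 tested genes were higher and 4289 lower by 2-fold or more at an adjusted p under 0.05 in edgeR. The sign of the changes of IGFBP4 and IGF2 differed between scalings. A gene was called when it differed by 3-fold or more with an adjusted p under 0.01 in edgeR's quasi-likelihood test. Under this rule 6 of the 10 genes were higher in p85β KR-AA cells (INSR, IGF1R, IGF2R, IRS1, IRS2 and IGFBP3), beside 28.6% of all 16059 tested genes. IGFBP6 alone was lower, beside 17.6% of tested genes, and IGFBP2, IGFBP4 and IGF2 were not called. All 3 p85β KR-AA libraries lay above all 3 parental libraries for 6 of the genes, beside 47% of tested genes, and below them for 3, beside 36.5%. The median log2 fold change was 1.93 over the 10 genes and 0.32 over all tested genes.

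**Figure D1:**
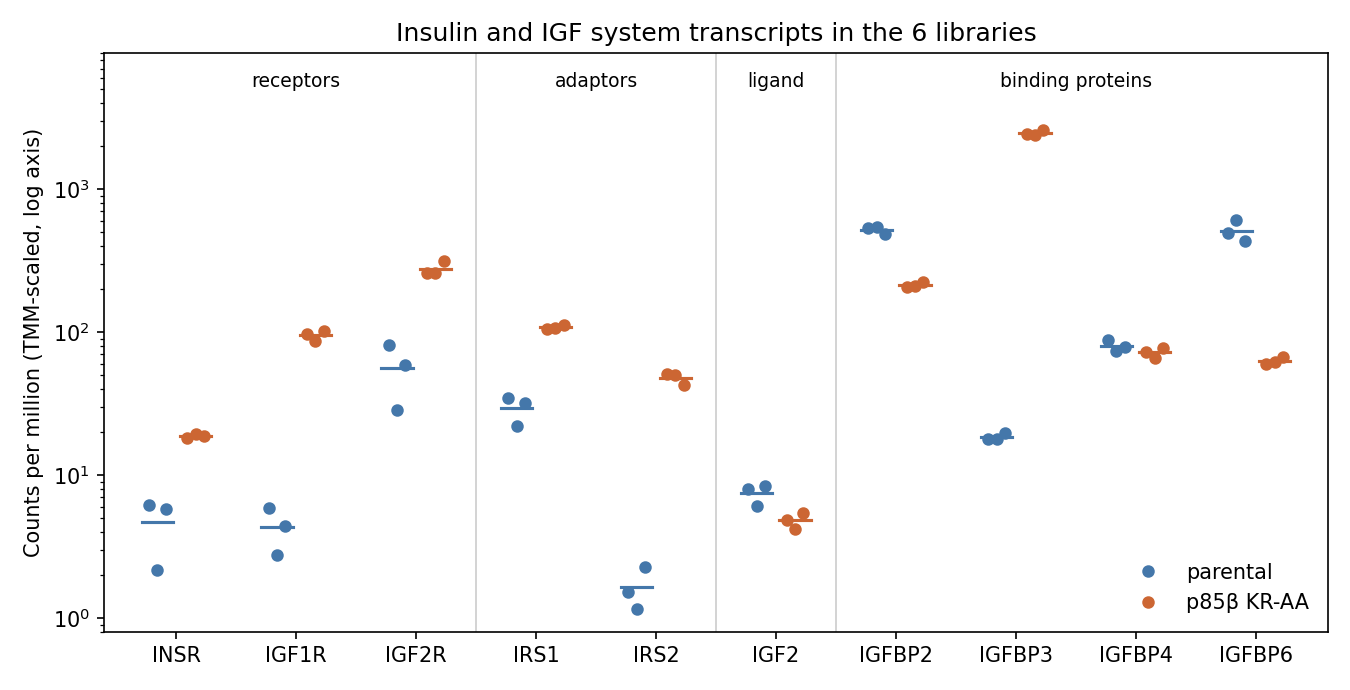
CPM of each of the 10 genes (log axis) in each of the 3 parental and 3 p85β KR-AA libraries, 1 point per library, with the group mean as a bar. IGFBP3 sits near 18 CPM in the parental libraries and at 2407 CPM or more across the p85β KR-AA libraries, and only IGFBP4 has overlapping groups.

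Gene length and cell markers moved with the genotype and are given before the single genes. Genes over 4000 bases took 9.49 to 12.1% of counts in parental libraries and 27.7 to 28.9% among p85β KR-AA libraries. Among the 4956 tested genes of that length 50.9% were called higher, against 10.5% of the 1593 genes up to 1000 bases. Parental replicate 2 had the smallest share of counts in long genes. Of 12 mesenchymal markers, 3 were above 1 CPM in every parental library and 9 in every p85β KR-AA library. Their summed level went from 7.65 to 10.3 CPM in parental libraries to 6339 to 7246 CPM among p85β KR-AA libraries, and COL1A2 was at 0 counts in the latter. FN1 and VIM, at means of 4992 and 1772 CPM, made up nearly all of that sum, and none of the other 10 markers had a mean above 15.6 CPM. All 8 general epithelial markers were above 1 CPM in every library of both groups, with sums of 57572 to 79717 and 8881 to 10392 CPM that were mostly KRT8, KRT18 and KRT19. Of these 8 genes 4 were called lower and 1, CDH1 (3.53-fold), higher. Of 9 colon epithelial markers 8 and 6 were above 1 CPM in every parental and every p85β KR-AA library, with sums of 383.6 to 434.5 and 163.7 to 171.4 CPM, and 3 were called lower and 2, CDH17 and MUC13, higher. Of 7 hepatocyte markers 1 was above 1 CPM in every library of each group, as was 1 of 6 blood markers, and of 7 neuronal markers 1 and 4 were. The part of these marker shifts in the results below was not tested. In RNA from a whole culture, fewer cells of a type and less RNA per cell cannot be told apart. The targeted gene PIK3R2, whose protein was changed rather than removed, had 524.14, 169.29 and 312.96 counts in parental replicates 1 to 3 and 503.15, 475.99 and 124.51 in p85β KR-AA replicates 1 to 3, and its groups overlapped (log2 fold change -0.93, SE 0.42, adjusted p = 0.0558).

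The stretches of DNA just before the start of these genes are shown for the 3 with the largest rise and for the 1 called lower. They differ in base composition, and any relation of these sequences to the changes was not tested. The sequences are the 250 bases before the RefSeq start (GRCh38.p14), 5′ to 3′ on the strand of the gene, with every CpG in capitals. IGFBP3 is at chr7:45921273-45921522 on the minus strand, IRS2 at chr13:109786584-109786833 on the minus strand, IGF1R at chr15:98648289-98648538 on the plus strand and IGFBP6 at chr12:53097417-53097666 on the plus strand.
IGFBP3: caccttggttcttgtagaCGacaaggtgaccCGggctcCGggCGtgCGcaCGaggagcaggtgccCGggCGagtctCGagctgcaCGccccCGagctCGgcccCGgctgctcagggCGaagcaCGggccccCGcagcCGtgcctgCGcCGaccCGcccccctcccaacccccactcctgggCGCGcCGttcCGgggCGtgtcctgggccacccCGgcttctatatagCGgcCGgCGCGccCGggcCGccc
IRS2: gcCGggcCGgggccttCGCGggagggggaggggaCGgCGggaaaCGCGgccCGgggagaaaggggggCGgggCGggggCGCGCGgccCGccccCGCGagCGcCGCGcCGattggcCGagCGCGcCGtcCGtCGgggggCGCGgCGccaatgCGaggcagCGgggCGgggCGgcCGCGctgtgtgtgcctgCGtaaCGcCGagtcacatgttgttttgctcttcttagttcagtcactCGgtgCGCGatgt
IGF1R: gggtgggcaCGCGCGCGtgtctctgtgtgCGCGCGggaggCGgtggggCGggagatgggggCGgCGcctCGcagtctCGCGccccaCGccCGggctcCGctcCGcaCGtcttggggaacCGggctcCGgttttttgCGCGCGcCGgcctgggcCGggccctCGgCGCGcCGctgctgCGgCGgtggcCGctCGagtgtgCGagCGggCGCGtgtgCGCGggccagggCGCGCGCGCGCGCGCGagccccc
IGFBP6: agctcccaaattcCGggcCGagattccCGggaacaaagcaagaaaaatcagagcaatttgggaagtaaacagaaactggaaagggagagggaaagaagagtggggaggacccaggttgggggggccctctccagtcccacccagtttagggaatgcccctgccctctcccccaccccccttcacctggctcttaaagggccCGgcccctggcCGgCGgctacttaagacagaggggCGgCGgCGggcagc

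The IGF1R stretch held 48 CpGs, a number that only 0.262% of the 35116 promoter windows of the same length reached. IRS2 held 42 (reached by 1.38% of windows), IGFBP3 32 (9.52%) and IGFBP6 9 (54.1%), beside a median of 11. The other receptors and adaptor were also CpG-rich, with 28 in INSR, 33 in IGF2R and 39 in IRS1, and IGFBP4 held 24. IGFBP2 has 3 annotated starts, with 7, 22 and 4 CpGs. The letters GGGCGG, the GC box, each of which contains a CpG of the same count, were found on either strand 2 times in IGFBP3, 5 times in IRS2, 2 times in IGF1R and once in IGFBP6, and at least once in 42.6% of all windows. The letters TGTTTAC, the core that FOXO factors bind, were found on either strand in IGFBP6 and in none of the other windows of these genes, and in 2.98% of all windows. These matches describe letters only, and 9 of the 10 genes had a window in the table.

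INSR encodes the insulin receptor (chr19:7112266-7294425, minus strand, GRCh37). It stood at 6.18, 2.18 and 5.80 CPM in parental replicates 1 to 3 and at 18.2, 19.5 and 18.8 CPM in p85β KR-AA replicates 1 to 3. Every p85β KR-AA library was above every parental library, and parental replicate 2 was the lowest. The mean went from 4.72 ± 2.20 to 18.9 ± 0.656 CPM (SD, n = 3 per group), a 3.96-fold rise (log2 fold change 1.99, SE 0.29, adjusted p = 3.32e-05 in edgeR). A rise beyond 3-fold was not established when that size itself was tested (adjusted p = 0.0764).

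IGF1R encodes the IGF1 receptor, the closest relative of INSR (chr15:99191768-99507759, plus strand, GRCh37). It was measured at 5.85, 2.77 and 4.44 CPM in the parental libraries and at 96.8, 87.5 and 101.8 CPM across the p85β KR-AA libraries. The groups were far apart relative to their spread, with means of 4.35 ± 1.54 and 95.4 ± 7.22 CPM (SD, n = 3). IGF1R rose 21.8-fold (log2 fold change 4.44, SE 0.22, adjusted p = 5.96e-09 in edgeR), and 94.7% of tested genes had a smaller log2 fold change.

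IGF2R encodes the clearance receptor for IGF2 (chr6:160390114-160534539, plus strand, GRCh37). Its parental values of 81.8, 28.4 and 59.4 CPM were the most scattered of the receptors, and its p85β KR-AA values were 259.3, 259.7 and 314.5 CPM. No library of one group reached the other group. IGF2R rose 4.91-fold from 56.5 ± 26.8 to 277.8 ± 31.8 CPM (SD, n = 3; log2 fold change 2.30, SE 0.28, adjusted p = 7.70e-06 in edgeR). A pseudogene on the same strand inside IGF2R, CHP1P2, had a mean of 5 counts in parental and 45.8 among p85β KR-AA libraries, so that few reads were at issue between the 2 genes.

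Because both kinase receptors rose by unequal amounts, their balance was compared within each library. Levels per length were used, as TPM (counts divided by gene length, brought to the same total in every library), and scaling between libraries plays no role. The IGF1R to INSR ratio was 0.732, 0.980 and 0.592 in the parental libraries and 4.11, 3.47 and 4.18 across the p85β KR-AA libraries. INSR was thus the more abundant of the pair in parental replicates 1 and 3 and IGF1R in every p85β KR-AA library, a 5.19-fold change of the ratio. In parental replicate 2 INSR and IGF1R were nearly equal, at 0.205 and 0.200 TPM from 30 and 38 counts. The IGF2R to IGF1R ratio, at 12.2, 8.94 and 11.7 in parental libraries and 2.33, 2.58 and 2.69 among p85β KR-AA libraries, was 4.28-fold lower. Of the transcripts of the 3 receptors, IGF1R made up 7.66% ± 1.27 in parental and 26.4% ± 1.35 among p85β KR-AA libraries (SD, n = 3), INSR 10.2% ± 1.40 and 6.78% ± 0.681, and IGF2R 82.2% ± 1.35 and 66.8% ± 1.62. Each of 6 ratios compared in this way gave the smallest p that an exact two-sided permutation test of 3 against 3 libraries allows, 0.1, also after adjustment over the 6.

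**Figure D2:**
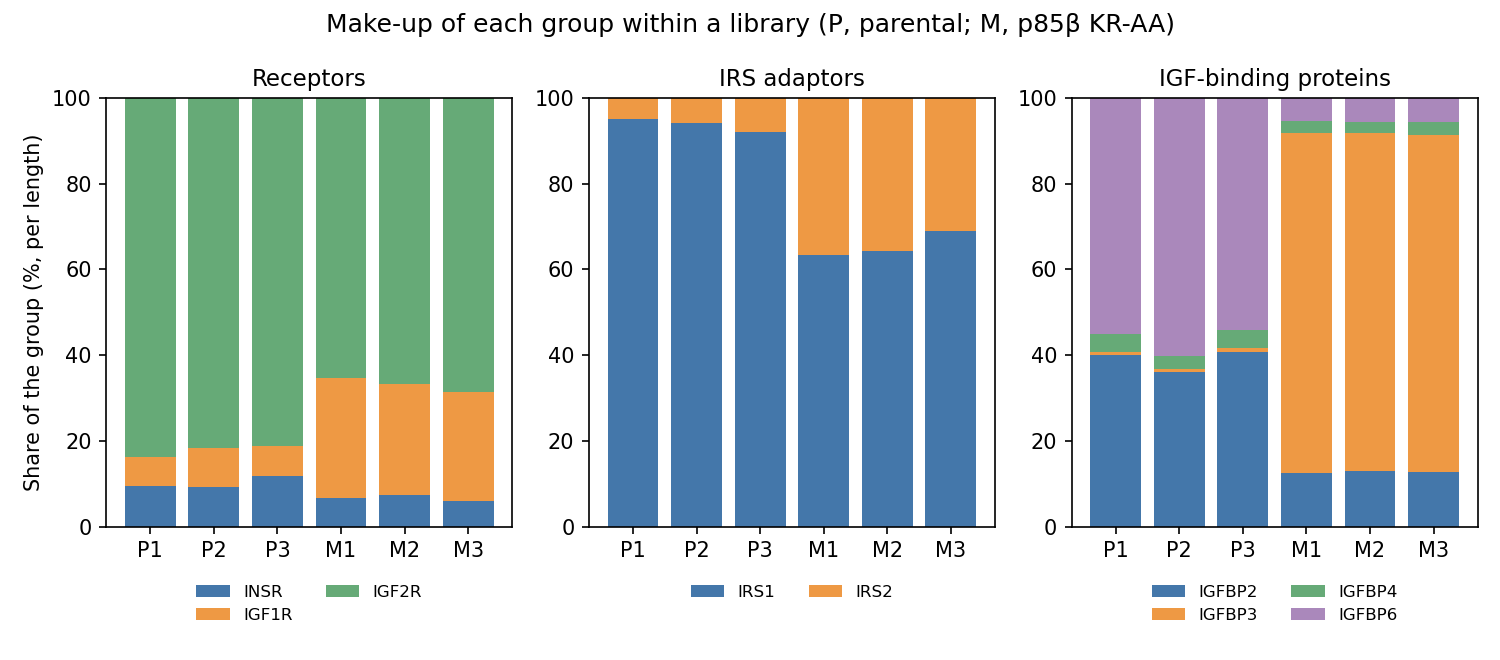
Share of each receptor, adaptor and binding protein in the summed TPM of its group (%, y axis) in the 3 parental (P) and 3 p85β KR-AA (M) libraries, 1 stacked bar per library. IGF1R, IRS2 and IGFBP3 take larger shares in every p85β KR-AA library than in any parental library, and IGFBP3 goes from under 1% to about 79% of the 4 binding proteins.

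The adaptors carry the signal from both kinase receptors to PI3K. IRS1 (chr2:227596028-227664536, minus strand, GRCh37) was at 34.8, 22.1 and 32.0 CPM in parental libraries and at 105.2, 107.7 and 113.2 CPM among p85β KR-AA libraries. The groups did not overlap, and the lowest value was again that of parental replicate 2. The mean went from 29.7 ± 6.66 to 108.7 ± 4.08 CPM (SD, n = 3), a 3.66-fold rise (log2 fold change 1.87, SE 0.17, adjusted p = 3.78e-07 in edgeR). As for INSR, a rise beyond 3-fold was not established at the 0.01 threshold (adjusted p = 0.042).

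IRS2, the adaptor known for its FOXO-controlled transcription in liver (chr13:110405042-110438930, minus strand, GRCh37), was at low counts in parental cells, with 23.03, 16 and 37 counts or at most 2.28 CPM. The p85β KR-AA libraries had 1872, 1435.57 and 1176.95 counts, or at least 42.9 CPM. IRS2 therefore rose 28.5-fold, from 1.66 ± 0.570 to 48.0 ± 4.44 CPM (SD, n = 3; log2 fold change 4.83, SE 0.23, adjusted p = 4.80e-09 in edgeR). Per length, there were 0.0523, 0.0626 and 0.0849 IRS2 transcripts for each IRS1 transcript in parental libraries and 0.578, 0.552 and 0.451 among p85β KR-AA libraries. IRS2 went from 6.23% ± 1.45 to 34.4% ± 2.94 of the transcripts of the pair (SD, n = 3), and IRS1 remained the more abundant in all 6 libraries. The ratio rose 8.03-fold, and the difference of the log2 fold changes was 4.12 with the length and GC offsets.

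The receptors and adaptors are all long transcripts, between 8156 and 14044 bases in the deposited table. Of the 810 tested genes in this length range 65.9% were called higher and 1.6% lower, with a median log2 fold change of 2.41. The groups did not overlap for any of these 5 genes, beside 72% of tested genes over 4000 bases that were higher in this way. INSR, IGF2R and IRS1 lay below that median of 2.41, and IGF1R and IRS2 above it. When the counts were fitted with length and GC offsets, which take out every trend of expression with these properties, whatever produced it, IGF1R (log2 fold change 3.13) and IRS2 (4.71) were still called higher. The same fit gave 0.72 for INSR, 0.57 for IGF2R and 0.59 for IRS1, and none of these was called. Without parental replicate 2 the log2 fold changes were 1.63 for INSR, 1.95 for IGF2R and 1.67 for IRS1, and all 3 were still called.

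IGF2 was the only ligand among the 10 genes (chr11:2150342-2179621, minus strand, GRCh37). It stood at 7.97, 6.04 and 8.45 CPM in parental libraries and at 4.88, 4.21 and 5.43 CPM among p85β KR-AA libraries. In CPM all p85β KR-AA libraries were below all parental libraries, as for 43.4% of tested genes of 1001 to 4000 bases. The means were 7.49 ± 1.27 and 4.84 ± 0.609 CPM (SD, n = 3). In TPM all p85β KR-AA libraries were above, at 7.96, 7.13 and 8.68 against 5.14, 3.39 and 5.80 in parental libraries. The log2 fold change of -0.63 (SE 0.21, adjusted p = 0.0150 in edgeR) did not pass the threshold, and its sign turned with the scaling, to 0.28 with library totals and 1.302 with the length and GC offsets. Per length, IGF2 was at 0.865, 1.89 and 1.26 transcripts for each IGF2R transcript in parental libraries and at 0.167, 0.144 and 0.153 among p85β KR-AA libraries, 8.24-fold lower. The genes differ in length (1583 and 14044 bases), and the log2 change of the ratio turned from -3.04 to 0.73 with the length and GC offsets. The antisense gene IGF2-AS, whose reads can be told from those of IGF2 only by strand, had a mean of 8 counts in parental and 1.67 among p85β KR-AA libraries.

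The binding proteins changed in opposite directions. IGFBP3, the main carrier of IGFs in blood (chr7:45951844-45961473, minus strand, GRCh37), was at 17.8, 17.8 and 19.7 CPM in parental libraries and at 2446, 2407 and 2590 CPM among p85β KR-AA libraries. In counts these were 268, 245 and 320 against 89661, 69132 and 71079. The replicates of each group lay close together, at 18.5 ± 1.11 and 2481 ± 96.4 CPM (SD, n = 3). IGFBP3 rose 134-fold (log2 fold change 7.07, SE 0.16, adjusted p = 1.72e-11 in edgeR), above 97.5% of tested genes. By mean TPM it moved from rank 5879 among all genes in parental cells to rank 58 in p85β KR-AA cells.

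IGFBP6, which prefers IGF2 over IGF1 as its ligand (chr12:53491220-53496129, plus strand, GRCh37), was at 493.1, 606.9 and 432.0 CPM in parental libraries and at 59.7, 61.7 and 67.5 CPM among p85β KR-AA libraries. The groups did not overlap, as for 62.7% of tested genes up to 1000 bases that were lower in this way, and the mean went from 510.7 ± 88.8 to 63.0 ± 4.08 CPM (SD, n = 3). IGFBP6 was 8.11-fold lower (log2 fold change -3.02, SE 0.15, adjusted p = 5.96e-09 in edgeR). At 947 bases it was the shortest of the 10 genes, and 39.4% of tested genes up to 1000 bases were called lower. With the length and GC offsets its log2 fold change was -0.43, and it was not called.

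IGFBP2 (chr2:217497551-217529159, plus strand, GRCh37) was at 536.1, 544.9 and 486.9 CPM in parental libraries and at 208.0, 211.1 and 224.5 CPM among p85β KR-AA libraries. It was 2.44-fold lower on this scale (log2 fold change -1.28, SE 0.12, adjusted p = 5.41e-07 in edgeR), with no overlap between groups and a change short of the 3-fold limit. The direction did not hold on every scale: the log2 fold change was -0.36 with library totals and 0.44 with the length and GC offsets, and in TPM the means were 367.4 ± 23.4 and 393.4 ± 12.1 (SD, n = 3) with overlapping groups.

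IGFBP4, an inhibitory binding protein and the classical substrate of the protease PAPPA (chr17:38599702-38613977, plus strand, GRCh37), was at 87.7, 74.1 and 78.8 CPM in parental libraries and at 72.6, 66.5 and 78.2 CPM among p85β KR-AA libraries. The groups overlapped in CPM (log2 fold change -0.15, SE 0.13, adjusted p = 0.308 in edgeR). In TPM they did not, at 40.6, 29.8 and 38.8 in parental and 84.9, 80.7 and 89.7 among p85β KR-AA libraries. Other scalings gave 0.77 with library totals, 0.04 with upper quartiles and 1.64 with the length and GC offsets, the last of which called it higher.

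Within a library and per length, the IGFBP3 to IGFBP2 ratio was 0.0178, 0.0176 and 0.0218 in parental cells and 6.32, 6.13 and 6.20 in p85β KR-AA cells, a 327-fold change or 8.35 on the log2 scale, against 7.01 with the length and GC offsets. The IGFBP4 to IGFBP6 ratio was 0.0764, 0.0524 and 0.0783 in parental cells and 0.522, 0.463 and 0.497 in p85β KR-AA cells, a 7.27-fold change or 2.86 on the log2 scale, against 2.07 with the offsets. The transcripts of the 4 binding proteins together went from 942.2 ± 25.3 to 3096 ± 68.1 TPM (SD, n = 3). IGFBP6 and IGFBP2 made up 56.4% ± 3.24 and 39.0% ± 2.52 of them in parental cells, and IGFBP3 made up 79.0% ± 0.268 in p85β KR-AA cells. Of the 6089 tested genes in the length range of the binding proteins 15.5% were called higher and 27.1% lower.

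**Figure D3:**
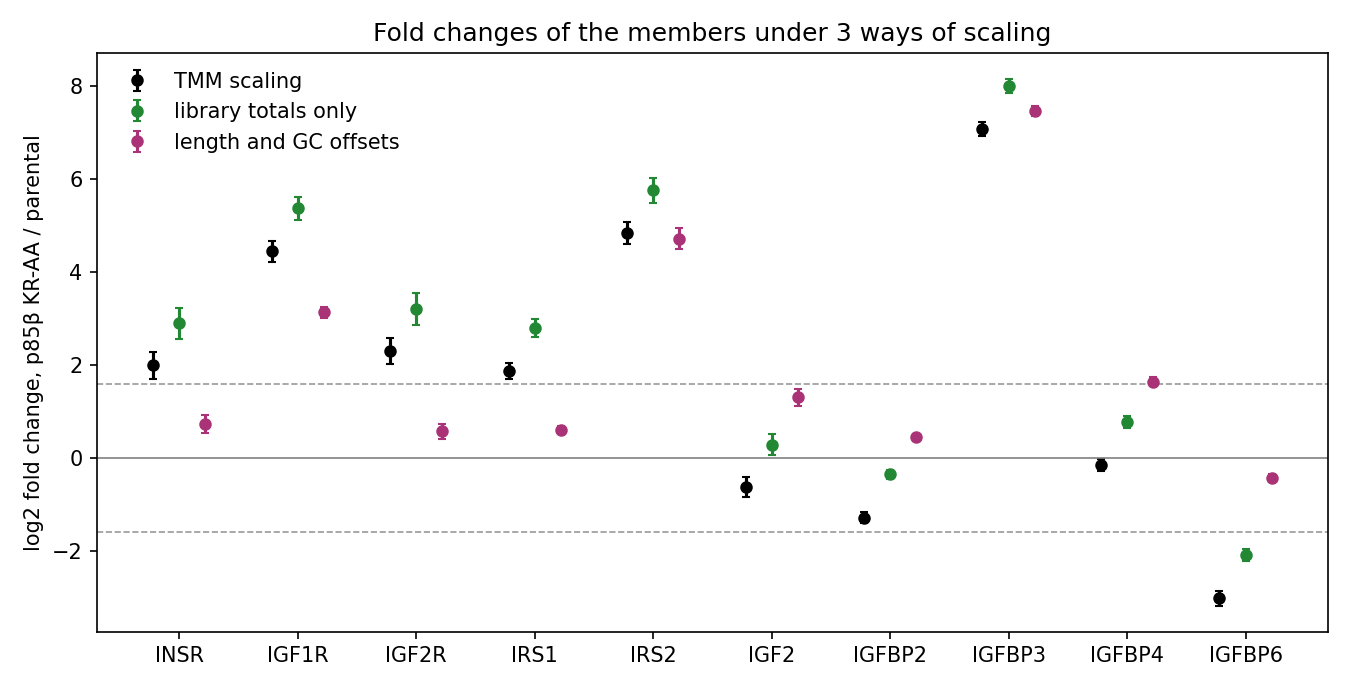
Log2 fold change of each of the 10 genes, p85β KR-AA over parental, with TMM scaling, with library totals only and with length and GC offsets (points, with SE as bars, and the 3-fold limits dashed). IGF1R, IRS2 and IGFBP3 stay above 3 on all 3 scales, while IGFBP2, IGFBP4 and IGF2 change sign between them.

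The order of the 10 genes by TPM also differed between the groups. In parental cells IGFBP6 (531.5 ± 36.5 TPM, SD, n = 3) and IGFBP2 were first, followed by IGFBP4 (36.4 ± 5.80) and IGFBP3 (7.02 ± 1.07). IGF2 (4.78 ± 1.25), IGF2R (4.11 ± 2.12) and IRS1 (3.09 ± 0.923) came next, with overlapping libraries. INSR (0.512 ± 0.266), IGF1R (0.361 ± 0.146) and IRS2 (0.207 ± 0.0896) were last, in this order in each parental library although their ranges overlapped. In p85β KR-AA cells IGFBP3 was first (2445 ± 45.7), ahead of IGFBP2, IGFBP6 (172.4 ± 9.04) and IGFBP4 (85.1 ± 4.50). IGF2R (51.2 ± 4.76), IRS1 (29.0 ± 0.934), IGF1R (20.2 ± 0.971) and IRS2 (15.3 ± 1.72) stood above IGF2 (7.92 ± 0.774) and INSR (5.17 ± 0.301), and here the libraries of neighbouring genes did not overlap.

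The surrounding pathway was read from 10 lists with 133 genes, of which 114 passed the filter. Of these, 61 were called higher, 15 lower and 38 neither, beside 28.6% and 17.6% of all tested genes, and the median log2 fold change was 1.72. The 114 include genes with under 10 counts in every parental library, which passed the filter only through the p85β KR-AA libraries and could differ only upward. With at least 10 counts required in every library, 43 pathway genes were called higher and 11 lower, beside 2898 and 2100 of 12693 tested genes. Among those over 4000 bases 41 of 54 were higher and 1 lower, beside 50.9% and 3.97% of all tested genes of that length, and among those of 1001 to 4000 bases 20 of 59 were higher and 13 lower, beside 20.1% and 21%. With library totals 73 of the 114 were called higher and 1 lower, beside 7052 and 973 of 16059 tested genes. With the length and GC offsets 32 were higher and 2 lower, beside 2832 and 1040 of 15902 tested genes.

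**Figure D4:**
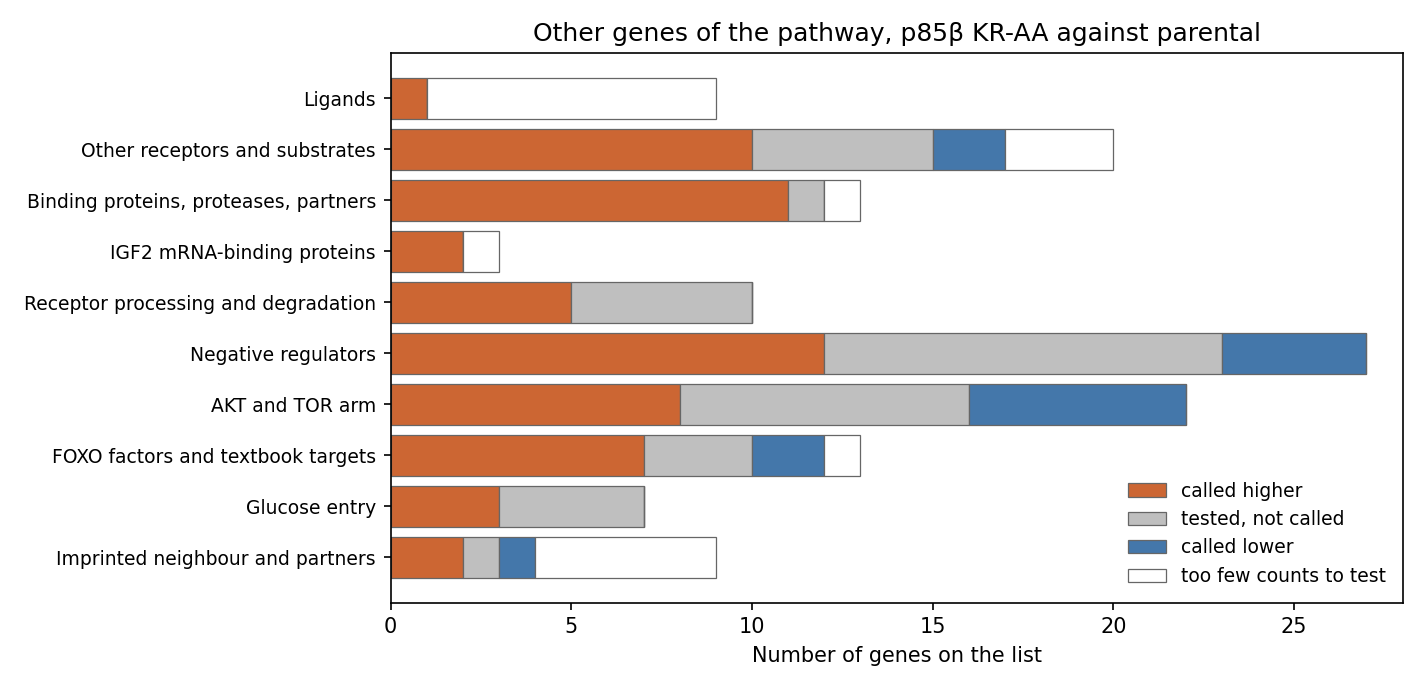
Number of genes on each of the 10 pathway lists (x axis) that were called higher, tested but not called, called lower, or had too few counts to be tested. Of the 12 tested genes on the list of other binding proteins, proteases and partners, 11 were called higher and 10 had under 10 counts in every parental library. The AKT and TOR list has 8 genes higher and 6 lower, beside 28.6% and 17.6% of all tested genes.

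Of the 12 tested genes for other binding proteins and the proteins that act on them 11 were called higher. Of the 12, 10 had under 10 counts in every parental library and passed the filter only through the p85β KR-AA libraries, so that they had to differ and the count of calls is no measure of the list. With at least 10 counts required in every library, 2 genes were left and 1 was called higher. IGFBP1, a short-lived carrier that insulin represses in liver, had 0 counts in the 3 parental libraries and 188, 136 and 111 counts across the p85β KR-AA libraries. Against a floor of 3 counts per library, it was at least 21.2-fold higher. PAPPA2, a protease of IGFBP5 and IGFBP3, also went from 0 counts in every parental library to 279, 190 and 191 counts, at least 32.3-fold higher. HTRA1, a secreted serine protease that cuts IGFBPs among other substrates, had 1, 0 and 0 counts in parental libraries and 1153, 850 and 953 among p85β KR-AA libraries, a ratio of 1433 with a 95% counting interval of 257.0 to 56615.

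Further genes of this list were singled out after their values had been seen. PAPPA, the protease of IGFBP4, had 0, 0 and 2 counts in parental libraries and 990.6, 721.57 and 698.77 among p85β KR-AA libraries, a ratio of 584.6 (95% counting interval 161.7 to 4830). STC1 and STC2 encode stanniocalcins, which inhibit the PAPPA proteases. STC1 had 1, 2 and 6 counts in parental libraries and 2228, 1719 and 1406 among p85β KR-AA libraries. STC2, which was measurable in both groups, rose 6.89-fold from a mean of 38.6 ± 4.15 to 266.2 ± 6.27 CPM (SD, n = 3). PAPPA, STC1, IGFBP5 and IGFBP7 passed the filter only through the p85β KR-AA libraries. Their shared direction was therefore set by the filter and is no result about proteases and inhibitors. IGFBP5 had 0, 0 and 2 parental counts and 187, 140 and 159 p85β KR-AA counts, and IGFBP7, a low-affinity relative, had 1.15, 1 and 0 against 662.17, 590.7 and 511.5. The gene of the list that was tested and not called was KLK3, at 1.68 ± 0.751 and 0.654 ± 0.165 CPM (SD, n = 3).

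Few ligand genes were measurable in either group. INS and INS-IGF2 had 0 counts in all 6 libraries, which against 3 counts allows up to 0.218 CPM in the library with the highest floor, parental replicate 2. IGF1 had 0 counts in the parental libraries and 1.46, 3.53 and 0 across the p85β KR-AA libraries. The 1 ligand of 9 that passed the filter was INSL4, a placental member of the insulin family. INSL4 had 1, 1 and 5 counts in parental and 50, 36 and 33 among p85β KR-AA libraries. It went from 0.149 ± 0.138 to 1.27 ± 0.0825 CPM (SD, n = 3). INSL4 passed the filter only through the p85β KR-AA libraries, so that its direction was set by the filter. With at least 10 counts required in every library, no ligand of this list was tested.

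Among the other receptors and substrates 10 of 17 tested genes were higher and 2 lower, beside 28.6% and 17.6% of all tested genes. With the offsets 4 were higher and 0 lower, beside 2832 and 1040 of 15902 tested genes. INSRR, SHC3 and SHC4 passed the filter only through the p85β KR-AA libraries, so that their direction was set by the filter. With at least 10 counts required in every library, 5 of 11 tested genes were higher and 2 lower, beside 2898 and 2100 of 12693. SHC4 and SHC3 encode adaptors of receptor kinases. SHC4 had 0 counts in every parental library and 279, 271 and 153 across the p85β KR-AA libraries, at least 34.5-fold higher, and SHC3 had 5, 1 and 0 against 139, 109 and 132. INSRR, the orphan member of the insulin receptor family, had 0, 0 and 1 against 19, 32 and 18 counts, and remained below 1 CPM on average (0.763 ± 0.312, SD, n = 3). DOK4, a docking protein phosphorylated by the insulin receptor, was 4.20-fold lower at 97.1 ± 10.8 and 23.1 ± 0.641 CPM (SD, n = 3), and was not called with the length and GC offsets.

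In the list of receptor processing and degradation 5 of 10 genes were higher and none lower, beside 28.6% and 17.6% of all tested genes. With the offsets 2 were higher and 1 lower, beside 2832 and 1040 of 15902 tested genes. The ubiquitin ligases CBL (log2 fold change 3.81), CBLB (3.16) and NEDD4 (3.05), which act on activated receptors, rose in p85β KR-AA cells. CBL and CBLB were still called with the length and GC offsets and NEDD4 was not. Both tested IGF2 mRNA-binding proteins were higher, beside 28.6% of all tested genes. IGF2BP3 rose from 3.42 ± 0.787 to 27.0 ± 6.84 CPM (SD, n = 3). With the offsets 1 of the 2 was still called higher, and the call of IGF2BP3 was lost.

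Of 27 negative regulators 12 were higher and 4 lower, beside 28.6% and 17.6% of all tested genes. With the length and GC offsets 6 were higher and 1 lower, beside 2832 and 1040 of 15902 tested genes. Of the 27, 1 had under 10 counts in every parental library. With at least 10 counts required in every library, 12 of 25 were higher and 2 lower. SOCS3, a feedback inhibitor that binds IRS proteins and cytokine receptors, rose 7.63-fold from 14.2 ± 1.61 to 108.5 ± 8.66 CPM (SD, n = 3). SH2B3 (LNK), an inhibitory adaptor, rose 7.37-fold, and both were called with the offsets. ENPP1, an ectoenzyme that can inhibit the insulin receptor, rose 5.94-fold but stayed at 3.46 ± 0.602 CPM and was not called with the offsets. INPP5D (SHIP1), a phosphatase of the PI3K product, fell 4.25-fold from 3.20 ± 1.76 CPM to 0.746 ± 0.214 CPM (SD, n = 3).

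In the AKT and TOR arm 8 of 22 genes were higher and 6 lower, beside 28.6% and 17.6% of all tested genes. The median log2 fold change was 0.42 beside 0.32. Of the 22, 1 had under 10 counts in every parental library, so that its direction was set by the filter. With at least 10 counts required in every library, 7 of 21 were higher and 5 lower, with a median of 0.26 beside 0.10. SGK1, an AKT-related kinase, rose 19.2-fold from 1.52 ± 0.489 to 29.4 ± 1.87 CPM, and RICTOR, the scaffold of TOR complex 2, rose 11.8-fold. RPS6KB2 (7.26-fold), AKT1S1 (5.37-fold) and EIF4EBP1 (4.39-fold), which act around TOR complex 1, were lower. With library totals 11 genes of the list were called higher and 1 lower, beside 7052 and 973 of 16059 tested genes. With the length and GC offsets 3 were higher and 0 lower, beside 2832 and 1040 of 15902. SGK1 was then called higher and RICTOR was not.

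Among FOXO factors and their textbook targets 7 of 12 tested genes were higher and 2 lower, beside 28.6% and 17.6% of all tested genes. With the length and GC offsets 3 were higher and 0 lower, beside 2832 and 1040 of 15902 tested genes. The stress-response gene SESN3 rose from 1.03 ± 0.230 to 32.4 ± 7.46 CPM and the repressor BCL6 rose from 4.57 ± 1.73 to 50.7 ± 0.498 CPM (SD, n = 3). PCK1, the gluconeogenic enzyme that insulin represses in liver, had 1, 3 and 0 counts in parental and 107, 64 and 77 among p85β KR-AA libraries. FOXO6 was 5.19-fold lower at 8.66 ± 0.270 and 1.65 ± 0.471 CPM (SD, n = 3). With the length and GC offsets SESN3 and BCL6 were called higher and FOXO6 was not called. PCK1 was called higher as well, but it passed the filter only through the p85β KR-AA libraries, so that its direction was set by the filter. With at least 10 counts required in every library, 6 of 11 tested genes of this list were higher and 1 lower, beside 2898 and 2100 of 12693.

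For glucose entry 3 of 7 genes were higher and none lower, beside 28.6% higher over all tested genes. With the offsets 1 of 7 was higher, beside 2832 of 15902 tested genes. SLC2A3, the high-affinity transporter GLUT3, rose 24.9-fold from 18.2 ± 4.39 to 454 ± 7.70 CPM (SD, n = 3) and TBC1D4, an AKT substrate in transporter traffic, rose 5.70-fold. SLC2A3 was called with the offsets and TBC1D4 was not. Of the imprinted genes 2 of 4 tested were higher and 1 lower, beside 28.6% and 17.6% of all tested genes. H19, which shares an imprinting center with IGF2, had 13310, 11041 and 11011 counts in parental and 5202, 4553 and 4174 among p85β KR-AA libraries, 5.23-fold lower by edgeR. KCNQ1OT1, an antisense transcript inside KCNQ1 whose reads cannot be told from those of its host without strand, was 10.2-fold higher. Neither H19 nor KCNQ1OT1 was called with the length and GC offsets.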

How the data were processed

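RNA-seq of 3 parental and 3 p85β KR-AA libraries was grouped by the genotype labels. Paired-end reads had been trimmed (SeqPrep, then Sickle, in the study's methods). HISAT2 2.1.0, RSEM 1.3.1, DESeq2 1.24.0 and build hg18 are named in the submitters' processing notes, without roles. The annotation and the strand setting of the counting are not given in the sources used here. The authors deposited expected counts (estimated counts, not normalized) for 58884 Ensembl genes and a gene length, the only columns used. Totals were 20301932 to 20873475 counts in parental and 20301396 to 26712816 in p85β KR-AA libraries, so that 3 counts, the floor, were 0.0818 to 0.218 CPM. Floors and intervals (conditional exact binomial) cover counting error only. Replicates differed by more than sampling noise (chi-square per degree of freedom 4.08 to 35.8).

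The design assumed whole counts, and expected counts were rounded. edgeR 4.0.16 in R 4.3.3 was run with filterByExpr (minimum count 10, minimum total 15), TMM, the quasi-likelihood F test and Benjamini-Hochberg adjustment over 16059 genes, with no covariate, and was tested on simulated data. The threshold (fold change 3, adjusted p 0.01) is that of the study. The SE of a log2 fold change was obtained from its F statistic. TPM was computed from counts and the deposited length. Symbols, GC content and positions came from GENCODE 44 on GRCh37, joined by Ensembl identifier (56745 matched). The build behind the counts was not established, and promoter coordinates are those of RefSeq on GRCh38.p14.

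The 10 genes, the pathway lists and the marker lists were chosen with earlier results of these data known. Named genes were all 10 genes and, from each pathway list, up to 3 higher and 3 lower called genes of largest change without overlap between groups, at most 30 in all, with PIK3R2; markers are given by list. A gene that this rule names is not reported here. Alternatives were DESeq2 1.42.0, library totals, upper quartiles, 2 other count filters, a replicate block, length and GC offsets (robust spline with 5 degrees of freedom per property), other thresholds and each library left out. H3K27me3 ChIP-seq was not analysed here.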

Additional observations from a re-analysis of the deposited data

How the results depend on the processing

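The 6 genes called higher and the 1 called lower were the same number with DESeq2, library totals, upper quartiles, both other count filters and every library left out. With a library left out, log2 fold changes were 4.19 to 4.70 for IGF1R, 4.62 to 5.10 for IRS2 and 7.02 to 7.10 for IGFBP3. Library totals moved the median of all tested genes from 0.32 to 1.24 and the share of higher among called genes from 61.9% to 87.9%, with 7052 genes higher and 973 lower in place of 4597 and 2825, 1 pathway gene lower in place of 15, and IGFBP4 at 0.77 and IGF2 at 0.28. IGFBP4 was at 0.043 with upper quartiles and 0.050 with at least 10 counts in every library, where 2898 genes were higher. Length and GC offsets gave 4 of the 10 genes higher and 0 lower, 32 pathway genes higher and 2 lower, 2832 genes higher and 1040 lower, and log2 fold changes of 0.44 for IGFBP2, 1.64 for IGFBP4 and 1.302 for IGF2. A fold change of 2 with an adjusted p under 0.05 gave 2 of the 10 genes lower (IGFBP2 added) and 4289 genes lower. The test against a fold change of 3 gave 4 of the 10 genes higher, 8 pathway genes lower, and 2974 genes higher and 1779 lower. These offsets, scalings and thresholds change the numbers by construction, and other causes were not tested.

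Replicate numbers of the labels showed no clear pairing of the samples. Deviations of same-numbered libraries correlated at -0.14, 0.12 and -0.04, and libraries did not all correlate best with their own number. With 3 libraries per group these values cannot settle whether the samples were paired. The replicate block gave 4626 genes higher and 2827 lower, 61 and 15 pathway genes and 6 and 1 of the 10 genes, and changed no call of the 10 genes. With robust moderation it gave 4618 and 2823. The prior degrees of freedom were infinite in both block fits and without a count filter, so single p-values from them are not given. The block with the offsets gave 2768 and 1022 genes, 32 and 2 pathway genes, 0 of the 10 genes lower, and 0.44 for IGFBP2, 1.64 for IGFBP4 and 1.32 for IGF2. The ratios within a library kept their direction with any library left out, but 3 against 3 libraries cannot reach a p under 0.1. As differences of log2 fold changes with the length and GC offsets, an alternative chosen after seeing the data, IGF2 to IGF2R turned from -3.04 to 0.73, IGFBP3 to IGFBP2 went from 8.35 to 7.01, IGFBP4 to IGFBP6 from 2.86 to 2.07, IRS2 to IRS1 to 4.12 and IGF2R to IGF1R from -2.10 to -2.56.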
